A study of Rattus norvegicus with 100 samples.

Results

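The arrays described here measured primary rat hepatocytes kept for 24 h with 0.1 µM GW7647, set against hepatocytes kept for 24 h at 0 µM. The arrays were chosen by their titles, which give the rat, time and concentration, and they were 6 of the 100 arrays of the study, 3 at 0.1 µM and 3 at 0 µM. GW7647 is a synthetic agonist of PPARα, and the question addressed was which genes of cultured hepatocytes respond to it, at which concentration and after which exposure. Every culture had been plated on rat collagen IV with a Geltrex overlay and kept in William E medium with a maintenance supplement, and a solvent for the 0 µM cultures was not given in the sources used here. The 0.1 µM arrays came from rats Rs627, Rs628 and Rs631, and the 0 µM arrays from Rs627, Rs631 and Rs632, so that 2 rats gave a culture to both groups. The strain, sex and age of the rats were not given in the sources used here. Each array measured 1 culture of 1 rat, and the number of arrays limits the precision.

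PPARα is a nuclear receptor that binds fatty acids and their derivatives and, paired with a retinoid X receptor, acts on genes that carry a direct repeat of a short sequence with a single base between the copies. In the liver it is best known for the fasting response, in which fatty acids are taken up, activated to acyl-CoA and oxidised in mitochondria and peroxisomes, and in which pyruvate is spared from oxidation. Rodent hepatocytes are known for a strong response, with more peroxisomes and more ω-hydroxylase of the Cyp4a family.

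After 24 h at 0.1 µM, the 3 largest rises were those of Acot1, Ehhadh and Pdk4, and the largest falls were smaller than the largest rises. Of the 140 tested genes on 9 lists of fatty acid metabolism and fuel use, 72 were higher and 2 lower. Among all genes tested 2.96% were higher and 1.36% lower. The members and lists were chosen with earlier results of these data known, so their counts are not an independent test. Values are log2 intensities, errors on changes are standard errors of the fit, and each adjusted p is from limma over all genes tested, two-sided, with 0.05 as the threshold. Of 8843 genes tested, 382 differed from 0 µM (4.32%), of which 262 were higher (2.96%) and 120 lower (1.36%). The rises had a median log2 change of 0.91 and the falls of -0.57, against -0.05 for all genes. At least 2-fold differences were reached by 111 of the rises and 25 of the falls, and at least 4-fold differences by 28 rises and 0 falls. In 377 of the 382 genes the arrays of the groups did not overlap, which held for 21.9% of all genes tested. With rats entered as blocks 1143 genes passed (12.9%), 572 higher (6.47%) and 571 lower (6.46%), and the 382 were among them with the same sign. The count was 161 without the arrays of Rs627, 238 without Rs631 and 219 without Rs632, and with each array centred on its median the rises numbered 266 and the falls 60.

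**Figure D1:**
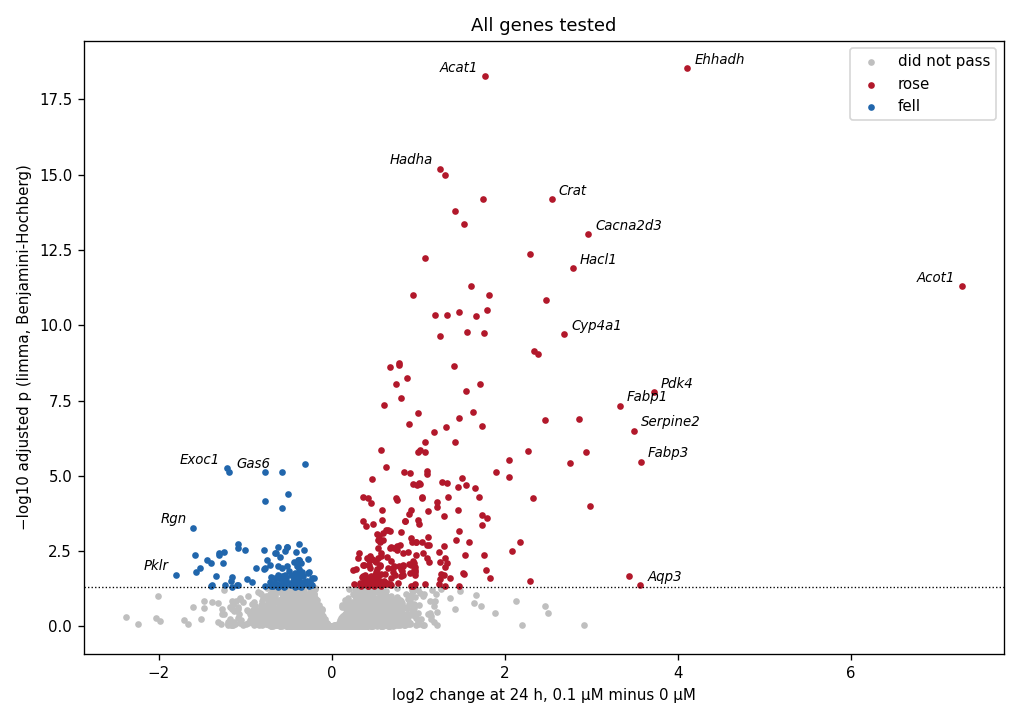
Log2 change at 24 h (0.1 µM minus 0 µM, horizontal) against −log10 of the limma adjusted p (vertical) for the 8843 genes tested, with 3 arrays per group and a dotted line at the threshold of 0.05. Red points are the 262 rises, which reach 7.28 as measured for Acot1, whose 0 µM arrays lie under the floor so that its rise is a bound of at least 97.6-fold, and blue points are the 120 falls, which reach -1.81 for Pklr.

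The largest rise was that of Acot1, a cytosolic thioesterase that splits long-chain acyl-CoA into fatty acid and CoA. Its values were 11.50, 11.85 and 11.48 at 0.1 µM in Rs627, Rs628 and Rs631, against 4.91, 3.95 and 4.13 at 0 µM in Rs627, Rs631 and Rs632. Per-array values below keep this order of rats. All 0 µM arrays lay under a log2 value of 5, taken here as the floor of measurement, and all 0.1 µM arrays lay far above it, so the rise is a bound of at least 97.6-fold (adjusted p = 5.03e-12). Ehhadh, which carries out the middle steps of peroxisomal β-oxidation, had values of 12.39, 12.55 and 12.47 at 0.1 µM, against 8.57, 8.25 and 8.27 at 0 µM. The groups lay apart by many times their own spread, and the rise was 17.2-fold (log2 change 4.11 ± 0.28, adjusted p = 2.98e-19). Pdk4, a kinase that switches off pyruvate dehydrogenase, had values of 11.96, 12.05 and 11.88 at 0.1 µM, against 8.64, 8.32 and 7.76 at 0 µM. It rose 13.2-fold (3.72 ± 0.49, adjusted p = 1.70e-08), and its 0.1 µM arrays lay closer together than its 0 µM arrays. Acot1 and its close copy Acot2 are named from separate probe sets, and signal shared between such copies cannot be told apart on these arrays.

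**Figure D2:**
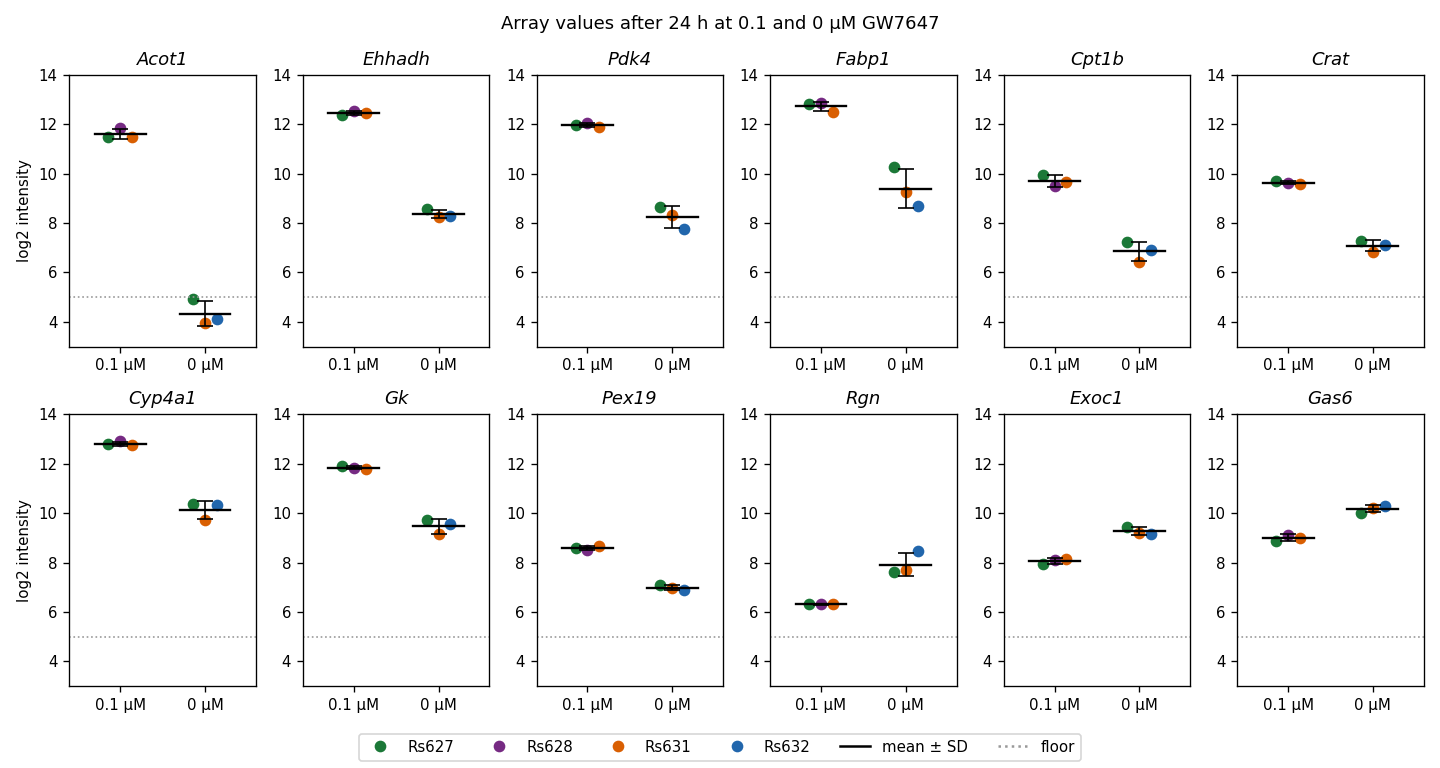
Log2 intensity (vertical) of 12 genes in each array at 0.1 µM (left) and 0 µM (right), coloured by rat, with mean ± SD over 3 arrays and a dotted line at the floor of 5. Ehhadh lies between 12.39 and 12.55 at 0.1 µM and between 8.25 and 8.57 at 0 µM, and Rgn, Exoc1 and Gas6 lie lower at 0.1 µM in every array.

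Most genes for the entry of fatty acids into mitochondria and for their oxidation there rose. Of 23 genes of mitochondrial fatty acid oxidation and the carnitine shuttle, 20 rose, 0 fell and 3 did not pass, against 2.96% of all genes rising, and the median log2 change of the list was 0.99 against -0.05 for all genes. Cpt1a, the liver form of the outer-membrane enzyme that loads long-chain acyl groups onto carnitine, had values of 10.23, 10.29 and 9.84 at 0.1 µM, against 8.76, 8.48 and 8.76 at 0 µM. Every 0.1 µM array was above every 0 µM array, and the rise was 2.74-fold (1.45 ± 0.28, adjusted p = 1.33e-04). Cpt1b, the form typical of muscle, had values of 9.96, 9.49 and 9.68 at 0.1 µM, against 7.22, 6.44 and 6.90 at 0 µM, a rise of 7.24-fold (2.86 ± 0.40, adjusted p = 1.30e-07). Crat, which moves short acyl groups between CoA and carnitine, was at 9.69, 9.61 and 9.56 at 0.1 µM, against 7.27, 6.85 and 7.12 at 0 µM, and rose 5.83-fold (2.54 ± 0.22, adjusted p = 6.62e-15). The carnitine transporter Slc22a5 rose 3.09-fold, the carnitine-acylcarnitine carrier Slc25a20 2.88-fold and the inner-membrane acyltransferase Cpt2 1.79-fold. Mlycd, which breaks down the Cpt1 inhibitor malonyl-CoA, rose 2.77-fold.

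Among the enzymes of the mitochondrial spiral, the change was larger for the medium-chain than for the long-chain acyl-CoA dehydrogenase. Acadm, the medium-chain enzyme, rose 2.95-fold (1.56 ± 0.18), Acadvl, the very-long-chain enzyme, 2.10-fold (1.07 ± 0.10), Acads, the short-chain enzyme, 1.88-fold (0.91 ± 0.17) and Acadl, the long-chain enzyme, 1.24-fold (0.31 ± 0.07). Hadha, the α subunit of the trifunctional protein, had values of 10.98, 11.06 and 11.11 at 0.1 µM, against 9.82, 9.82 and 9.78 at 0 µM. It rose 2.37-fold (1.24 ± 0.10, adjusted p = 6.40e-16), and another probe set of Hadha was 0.62 higher on the log2 scale without passing (adjusted p = 0.294). Its partner Hadhb rose 1.51-fold, the thiolase Acaa2 2.50-fold, the isomerase Eci1 2.28-fold, the dehydrogenase Hadh 1.98-fold and the reductase Decr1 1.88-fold. Of the electron acceptors of the dehydrogenases, Etfdh rose by 0.67, Etfb by 0.54 and Etfa by 0.24 on the log2 scale. Echs1, the hydratase, was 1.37-fold higher without passing (adjusted p = 0.0636, or 2.43e-04 with the rat as a block), Acad10 1.5-fold higher (0.0720, or 0.0144 with the block) and Acad9 had a log2 change of 0.18. Without Rs627 the calls of Acadl, Etfdh and Etfa were lost (adjusted p = 0.0641, 0.0710 and 0.160), without Rs631 those of Etfb and Etfa (0.240 and 0.132), and that of Etfa also without Rs628 (0.0586) or Rs632 (0.0817).

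Of 21 genes of enzymes and transporters of peroxisomes, which shorten very long and branched acyl chains, 10 rose and 0 fell (median 0.67). With the rat as a block 16 rose. The shares of all genes that rose were 2.96%, and 6.47% with the block. Hacl1, which cleaves branched-chain intermediates, had values of 11.34, 11.20 and 11.05 at 0.1 µM, against 8.72, 8.28 and 8.25 at 0 µM, a rise of 6.87-fold (2.78 ± 0.28, adjusted p = 1.26e-12). The groups lay more than 2 log2 units apart at their nearest arrays. Nudt7, which degrades CoA inside peroxisomes, rose 3.17-fold, the isomerases Eci2 and Ech1 2.76-fold and 2.68-fold, and Hsd17b4, the second bifunctional enzyme, 1.6-fold. Pxmp2, a channel of the peroxisomal membrane, rose 2.11-fold, the acyl-CoA transporter Abcd3 2.03-fold, the carnitine octanoyltransferase Crot 2.46-fold and catalase, Cat, 1.44-fold. The adjusted p was 0.0641 for Crot without Rs627 and 0.050 for Abcd3 without Rs631, which ended both calls. Phyh, the first enzyme of α-oxidation, was 1.41-fold higher and Acox2, a branched-chain acyl-CoA oxidase, 1.66-fold higher, both without passing (adjusted p = 0.40 and 0.374, or 1.66e-04 and 0.00396 with the block), and Phyh passed without Rs631 (0.0416).

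Of the peroxins, which build and divide peroxisomes, 5 of 13 rose and 0 fell (median 0.38), against 2.96% of all genes rising. Pex19, the carrier of peroxisomal membrane proteins, had values of 8.59, 8.51 and 8.66 at 0.1 µM, against 7.10, 6.97 and 6.89 at 0 µM, a rise of 3.04-fold (1.6 ± 0.16, adjusted p = 5.03e-12). Pex11a, a factor of peroxisome division, rose 3.46-fold (1.79 ± 0.35), and its 0 µM arrays spread from 8.53 to 9.86. Pex16 rose 1.99-fold, Pex3 1.91-fold and Pex13 1.29-fold. Without Rs627 or without Rs631 the list had 3 rises. The call of Pex16 was lost without Rs631 (adjusted p = 0.0879), that of Pex3 without Rs627 (0.286), and that of Pex13 without Rs627, Rs631 or Rs632 (0.255, 0.139 and 0.119).

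Of 8 genes of acyl-CoA thioesterases, which free CoA from acyl chains, 5 rose and 0 fell (median 1.52), against 2.96% of all genes rising. These 5 calls held with any rat left out. Beside Acot1, the peroxisomal Acot8 had values of 9.35, 9.36 and 9.16 at 0.1 µM, against 7.37, 7.60 and 7.66 at 0 µM, and rose 3.36-fold (1.75 ± 0.15, adjusted p = 6.54e-15). Acot7 rose 3.45-fold, Acot12 3.32-fold and the mitochondrial Acot2 2.49-fold, while Acot9, Acot13 and Them4 had log2 changes of -0.28, 0.23 and 0.54 without passing. In microsomal ω-oxidation, which hydroxylates the far end of fatty acids, 2 of 8 genes rose. Cyp4a1, a fatty acid ω-hydroxylase, had values of 12.79, 12.91 and 12.75 at 0.1 µM, against 10.36, 9.71 and 10.32 at 0 µM, a rise of 6.44-fold (2.69 ± 0.31, adjusted p = 2.00e-10). Cyp4a3, read by a probe set that a near-identical copy may share, rose 2.33-fold and lost its call without Rs631 (adjusted p = 0.0527). Of 6 genes of ketone bodies only Acat1, the mitochondrial acetoacetyl-CoA thiolase, rose: its values were 10.98, 10.95 and 11.13 at 0.1 µM, against 9.19, 9.30 and 9.27 at 0 µM (3.4-fold, 1.77 ± 0.12, adjusted p = 5.43e-19). Oxct1, which uses ketone bodies outside the liver, lay near the floor and was lower only with the block (adjusted p = 0.459, or 0.0187).

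Of 20 genes of uptake, binding and activation of fatty acids 8 rose and 0 fell (median 0.41), or 9 and 1 with the rat as a block. Among all genes 2.96% rose, or 6.47% with the block. Fabp1, the fatty acid binding protein of liver, had values of 12.80, 12.85 and 12.51 at 0.1 µM, against 10.26, 9.25 and 8.67 at 0 µM. The 0 µM arrays were more spread than the 0.1 µM arrays and all lay below them, and the rise was 10.0-fold (3.33 ± 0.45, adjusted p = 4.75e-08). Its promoter is shown because it was 1 of 2 among the rises that held the direct repeat searched for, AGGNCA followed by 1 base and AGGNCA again on either strand, in the window of 250 bases before and 50 after the start site. The 250 bases before the start, from RefSeq on GRCr8, chr4:104749090-104749339, plus strand, are printed with the match in capitals, at positions -77 to -65 and read on the opposite strand.
Fabp1: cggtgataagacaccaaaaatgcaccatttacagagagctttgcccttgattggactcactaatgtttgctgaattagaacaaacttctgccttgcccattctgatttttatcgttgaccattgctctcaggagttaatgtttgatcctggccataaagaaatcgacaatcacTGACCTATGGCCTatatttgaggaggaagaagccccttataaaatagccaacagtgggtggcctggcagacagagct
The repeat was in 113 of 27457 rat promoters (0.41%) and in 20 of 7476 promoters of tested genes (0.27%). It was in 2 of the 217 rises with a promoter in the table (0.92%) and in 0 of 99 falls. The other match was in Cyp2d3, a cytochrome P450 named here after its values were seen, which rose 2.32-fold (1.22 ± 0.23, adjusted p = 1.08e-04) and belongs to a family of close copies. A stricter search, with AGGTCA for both copies, matched 0 of the 217 rises and 1 of the 7476 tested genes. A match is a description of letters and not of binding.

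Fabp3, the binding protein typical of heart, had values of 7.90, 8.04 and 6.51 at 0.1 µM, against 3.75, 4.15 and 3.84 at 0 µM, all of the second group under the floor. It rose at least 5.60-fold (log2 change as measured 3.57 ± 0.57, adjusted p = 3.48e-06), and its log2 change was 4.18 without Rs631, the lowest 0.1 µM array. Acsl1, the main acyl-CoA synthetase of liver, had values of 12.48, 12.45 and 12.39 at 0.1 µM, against 10.84, 10.37 and 10.66 at 0 µM, a rise of 3.53-fold (1.82 ± 0.19, adjusted p = 9.76e-12). Acsl5 rose 1.49-fold by the probe set used, while another of its probe sets had a log2 change of -0.62 (adjusted p = 0.125). Dbi, the acyl-CoA binding protein, rose 1.33-fold. Slc27a2, a transporter with synthetase activity, rose 1.36-fold and Acsl3 2.47-fold, and both calls were lost without Rs627 (adjusted p = 0.0608 and 0.114), Rs631 (0.106 and 0.102) or Rs632 (0.104 and 0.118). Acsm3, a medium-chain synthetase, rose at least 2.06-fold and lost its call without Rs627 (0.107) or Rs631 (0.171), and the list had 5 rises without either of these rats. The scavenger receptor Cd36 was 1.58-fold higher without passing (12.58, 12.32 and 12.26 at 0.1 µM, against 12.02, 11.08 and 12.09 at 0 µM, adjusted p = 0.387), and passed with the rat as a block (0.00153).

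The list of fuel switch, fasting signals and glycerol had 13 rises and 2 falls among 26 genes (median 0.98). Among all genes 2.96% rose and 1.36% fell. Pdp2, a phosphatase that reactivates pyruvate dehydrogenase and so opposes Pdk4, also rose, 2.15-fold (1.10 ± 0.18). Pank1, the first enzyme of CoA synthesis, had values of 10.47, 10.47 and 10.65 at 0.1 µM, against 9.04, 8.69 and 8.58 at 0 µM, a rise of 3.39-fold (1.76 ± 0.20, adjusted p = 1.80e-10), and Slc25a42, which carries CoA into mitochondria, rose at least 4.64-fold. Angptl4, a secreted inhibitor of lipoprotein lipase, had values of 11.10, 11.40 and 11.46 at 0.1 µM, against 10.24, 10.28 and 10.42 at 0 µM, and rose 2.01-fold (1.01 ± 0.17, adjusted p = 1.68e-05). Fgf21, a hormone that the liver secretes in fasting, had values of 10.99, 10.52 and 10.45 at 0.1 µM, against 10.33, 10.02 and 10.20 at 0 µM, and did not pass (0.47 ± 0.41, adjusted p = 0.784). Txnip, an α-arrestin that restrains glucose uptake, rose 3.24-fold, whereas its relative Arrdc4 fell (7.47, 7.19 and 6.88 at 0.1 µM, against 8.20, 8.06 and 8.53 at 0 µM, 2.12-fold lower, adjusted p = 0.00188). Creb3l3, a membrane-bound transcription factor of fasting liver, rose 1.79-fold, and the pantetheinase Vnn1 1.96-fold (adjusted p = 0.0716 without Rs632). Retsat, a retinol saturase, was at 12.04, 10.00 and 12.14 at 0.1 µM, against 10.69, 10.43 and 10.07 at 0 µM. Rs628 set it apart: its log2 change was 0.99 (adjusted p = 0.654) with all arrays, and 1.69 (5.95e-04) without Rs628. The block also gave a call for Retsat (3.81e-04) and for the uncoupling protein Ucp2 (1.21 ± 0.41, adjusted p = 0.0846, or 0.00159 with the block).

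Genes of glycerol handling changed in both directions. Gk, which phosphorylates glycerol, had values of 11.90, 11.84 and 11.80 at 0.1 µM, against 9.72, 9.14 and 9.55 at 0 µM, a rise of 5.20-fold (2.38 ± 0.28, adjusted p = 8.88e-10). Gpd2, the mitochondrial glycerol 3-phosphate dehydrogenase, had values of 8.53, 7.98 and 8.42 at 0.1 µM, against 5.97, 5.65 and 6.31 at 0 µM, a rise of 5.03-fold (2.33 ± 0.28, adjusted p = 6.99e-10). Its cytosolic counterpart Gpd1 rose 2.17-fold, a call lost without Rs627 (adjusted p = 0.172), Rs631 (0.0533) or Rs632 (0.143). Of the glycerol channels, Aqp7 was at 10.17, 10.37 and 9.29 at 0.1 µM, against 7.08, 4.92 and 7.52 at 0 µM, and Aqp3 at 8.93, 7.79 and 4.34, against 3.45, 3.37 and 3.55. Aqp3 was above the floor in 2 of 3 arrays at 0.1 µM and in none at 0 µM. Both rose (at least 10.6-fold and at least 4.73-fold, adjusted p = 0.0207 and 0.0425), but lost their calls without Rs627 (0.188 and 0.690), Rs628 (0.153 and 0.241) or Rs632 (0.0677 and 0.215), and the log2 change of Aqp3 as measured was 3.56 with all arrays, 2.6 without Rs627 and 4.86 without Rs631. Aqp9, the glycerol channel typical of hepatocytes, fell to 4.92, 5.26 and 5.03 at 0.1 µM, against 6.14, 6.29 and 6.97 at 0 µM (at least 2.58-fold lower, adjusted p = 0.00784), and lost its call without Rs631 (0.0639) or Rs632 (0.0938).

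Of 15 genes of lipid droplet proteins and lipases 8 rose and 0 fell (median 0.45), against 2.96% of all genes rising. The rises numbered 5 without Rs627, Rs631 or Rs632. Mgll, which finishes triglyceride breakdown, had values of 10.86, 10.23 and 10.39 at 0.1 µM, against 9.19, 8.88 and 9.17 at 0 µM (2.67-fold, adjusted p = 2.28e-09). Pnpla2, the triglyceride lipase that starts it, rose 2.26-fold, and Fitm2, a factor of droplet formation, 2.94-fold. Plin2, the main coat protein of liver droplets, had values of 12.79, 12.67 and 12.91 at 0.1 µM, against 12.31, 12.34 and 12.37 at 0 µM. The groups did not overlap and the rise was small (1.37-fold, adjusted p = 8.03e-05), while 2 other probe sets of Plin2 did not pass (log2 changes of 0.02 and 0.19). G0s2, an inhibitor of that lipase, rose 2.85-fold, Cidea, a droplet protein typical of brown fat, 1.96-fold, Plin5 1.95-fold and the lysosomal lipase Lipa 1.45-fold. These 4 calls were not held with every rat left out: without Rs627 the adjusted p was 0.114 for Cidea, 0.0717 for Plin5 and 0.276 for Lipa, without Rs628 0.0738 for Plin5, without Rs631 0.261 for Cidea, 0.286 for G0s2 and 0.339 for Lipa, and without Rs632 0.0690 for Plin5, 0.218 for G0s2 and 0.235 for Lipa. Of 5 genes typical of fat cells, Cidea was the one that rose.

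Genes of fatty acid synthesis, desaturation and elongation had 8 rises and 0 falls among 22 (median 0.50), against 2.96% of all genes rising. The list had 9 rises and 1 fall with the block, and 5 rises without Rs632. The members that rose included the desaturase Fads2, of polyunsaturated fatty acids (8.92, 8.40 and 7.89 at 0.1 µM, against 6.34, 6.46 and 6.25 at 0 µM, 4.14-fold), the elongase Elovl6 (2.76-fold) and, of glycerolipid synthesis, Dgat1 (1.97-fold) and Agpat2 (1.99-fold). The malic enzyme Me1 rose 2.18-fold (adjusted p = 0.0577 without Rs632), the desaturase Scd 1.45-fold (0.115 without Rs627), Fads1 2.51-fold (0.0533 without Rs631 and 0.0817 without Rs632) and the transcription factor Srebf1 1.56-fold (0.416 without Rs627, 0.277 without Rs631 and 0.194 without Rs632). The core synthetic enzymes Fasn, Acly and Acaca had log2 changes of 0.05, -0.35 and -0.50 without passing, and that of Fasn was -0.13 without Rs627 and -0.01 without Rs632. Of 21 genes of cholesterol synthesis and uptake 0 passed, with a median of 0.13 and 3 whose arrays did not overlap, and 1 rose with the rat as a block. Over all genes tested the arrays did not overlap in 21.9%, and 6.47% rose with the block.

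Around glucose, 5 of 22 genes of glycolysis and gluconeogenesis rose and 1 fell (median 0.09), or 6 and 2 with the block. Among all genes 2.96% rose and 1.36% fell, or 6.47% and 6.46% with the block. Fbp1, a control enzyme of gluconeogenesis, had values of 11.70, 11.81 and 11.85 at 0.1 µM, against 11.08, 11.02 and 10.95 at 0 µM (1.71-fold, adjusted p = 1.76e-09), and Mpc2, a subunit of the mitochondrial pyruvate carrier, rose 1.82-fold (adjusted p = 5.51e-09). Pyruvate carboxylase, Pc, rose 3.39-fold (adjusted p = 0.0784 without Rs632). Pklr, the pyruvate kinase of liver, was at 6.30, 5.59 and 6.13 at 0.1 µM, against 7.45, 8.0 and 8.0 at 0 µM, the largest fall of all genes called (3.50-fold lower, -1.81 ± 0.50, adjusted p = 0.0196). Every 0.1 µM array of Pklr was below every 0 µM array, and its call was lost without Rs627 (0.0932), Rs631 (0.143) or Rs632 (0.194). Gckr, the inhibitor of glucokinase, and Ldha rose 1.57-fold and 1.36-fold, and lost their calls without Rs627 (0.0974 and 0.219) or Rs632 (0.0938 and 0.0666), Gckr also without Rs631 (0.171) and Ldha without Rs628 (0.133). The list had 3 rises without Rs627 and 2 without Rs632.

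The counts of the remaining lists are to be read against the 2.96% of all genes that rose and the 1.36% that fell. With the rat as a block those shares were 6.47% and 6.46%. Of 18 genes of bile acid synthesis and transport 1 rose and 2 fell (4 and 3 with the rat as a block): Cyp8b1, the 12α-hydroxylase that sets the share of cholic acid, was at 8.26, 8.14 and 8.43 at 0.1 µM, against 6.21, 6.25 and 5.40 at 0 µM (5.01-fold, adjusted p = 5.45e-05). Cyp27a1, of the alternative synthesis pathway, fell 1.49-fold (adjusted p = 0.0116, or 0.20 without Rs627 and 0.0738 without Rs632), and Abcc2, an export pump of the bile canaliculus, fell 2.98-fold with no overlap of the arrays (adjusted p = 0.0158, or 0.201, 0.107 and 0.106 without Rs627, Rs628 and Rs632). Of 34 genes of xenobiotic metabolism 4 rose and 0 fell (9 and 2 with the block). Ephx2, an epoxide hydrolase, rose 4.14-fold (11.66, 11.56 and 11.08 at 0.1 µM, against 9.97, 8.99 and 9.19 at 0 µM), the receptor Nr1i3 at least 3.31-fold and the P450 reductase Por 2.01-fold. Cyp2c13 rose 3.54-fold and lost its call without Rs627, Rs628 or Rs632 (adjusted p = 0.151, 0.160 and 0.286). Cyp1a2 was at 8.58, 7.22 and 5.83 at 0.1 µM, against 4.19, 4.99 and 5.08 at 0 µM, without overlap but without passing (adjusted p = 0.218), and its log2 change as measured was 2.46, 1.49 without Rs627 and 3.27 without Rs631.

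In nitrogen handling, 2 of 27 genes of the urea cycle and amino acid breakdown rose and 2 fell, or 9 and 4 with the rat as a block. Of all genes 2.96% rose and 1.36% fell, or 6.47% and 6.46% with the block. Ass1, which makes argininosuccinate, fell 1.84-fold (10.49, 10.32 and 10.81 at 0.1 µM, against 11.48, 11.65 and 11.13 at 0 µM, adjusted p = 0.0119, or 0.310 without Rs627 and 0.0971 without Rs628), and Prodh, which starts proline breakdown, 1.73-fold (adjusted p = 0.00280, or 0.0932 without Rs627 and 0.0552 without Rs632). Slc25a13, the aspartate-glutamate carrier, rose 1.47-fold (0.118 without Rs627 and 0.101 without Rs631) and Fah, of tyrosine breakdown, 1.37-fold (0.116, 0.122, 0.0758 and 0.124 without Rs627, Rs628, Rs631 and Rs632). None of these 4 calls held with every rat left out in turn. Without Rs628 the list had 4 rises, and without Rs627 it had 0 rises and 0 falls.

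Over all genes 4.32% were called, 2.96% higher and 1.36% lower, against which the lists of stress and plasma protein genes can be read. Their counts with the rat as a block are to be read against 12.9% of all genes, 6.47% higher and 6.46% lower. Of 19 NRF2 glutathione and thioredoxin genes, 15 had a negative change (median -0.27). Most of all genes tested also had a negative change (median -0.05). Of the 19, 0 rose and 1 fell (6 with the block). The one was Srxn1, which repairs peroxiredoxins (1.71-fold lower, adjusted p = 0.0448, or 0.186, 0.0845, 0.295 and 0.135 without Rs627, Rs628, Rs631 and Rs632). Among 12 catalase, superoxide dismutase and peroxidase genes only Cat rose (with the block 3 rose and 2 fell). Of 31 genes of ATF4 and the unfolded protein response, Vldlr, a lipoprotein receptor, rose 1.94-fold (adjusted p = 0.0394, or 0.560 without Rs627 and 0.404 without Rs631) and the chaperone Hsp90b1 fell 1.31-fold (0.00607, or 0.228, 0.136 and 0.0585 without Rs627, Rs631 and Rs632), and with the block 2 rose and 2 fell. Of 32 acute phase and inflammatory genes only Cxcl12, a chemokine, rose, at least 4.65-fold (7.74, 7.42 and 6.49 at 0.1 µM, against 4.05, 3.89 and 4.78 at 0 µM, adjusted p = 1.04e-04, or 0.0612 without Rs627), and with the block 3 rose and 7 fell. Of 32 complement and coagulation genes Klkb1, plasma kallikrein, fell 2.14-fold (adjusted p = 0.0439, or 0.303, 0.295 and 0.147 without Rs628, Rs631 and Rs632), against 9 rises and 6 falls with the block. Of 15 circadian genes Hlf, a factor bound to the clock's output, rose 3.01-fold (adjusted p = 0.00164, or 0.121 without Rs627).

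Genes of cytoskeleton, adhesion and matrix, which cultured hepatocytes gain with time, had 0 calls among 29, and 14 falls with the rat as a block (571 of all 8843 genes fell with it, 6.46%). Their median change was -0.26, against -0.05 for all genes, and 22 of 29 changes were negative, as were most of those of all genes. Flna, filamin A, was at 7.84, 8.73 and 7.48 at 0.1 µM, against 8.86, 8.45 and 8.85 at 0 µM (1.63-fold lower, adjusted p = 0.591, or 7.54e-04 with the block), and Vim, vimentin, at 9.41, 10.63 and 10.97, against 10.55, 11.72 and 11.01 (0.648, or 0.0166 with the block). In Rs627 and Rs631, the rats present in both groups, both genes were lower at 0.1 µM, and the groups as a whole overlapped. Without Rs628 the list had 3 falls. Of 20 cell cycle genes Cdk2 was the one called, at values around the floor (at least 1.07-fold higher, adjusted p = 0.00671, or 0.264 without Rs627 and 0.154 without Rs631), and another probe set of Cdk2 had a log2 change of 0.17.

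**Figure D3:**
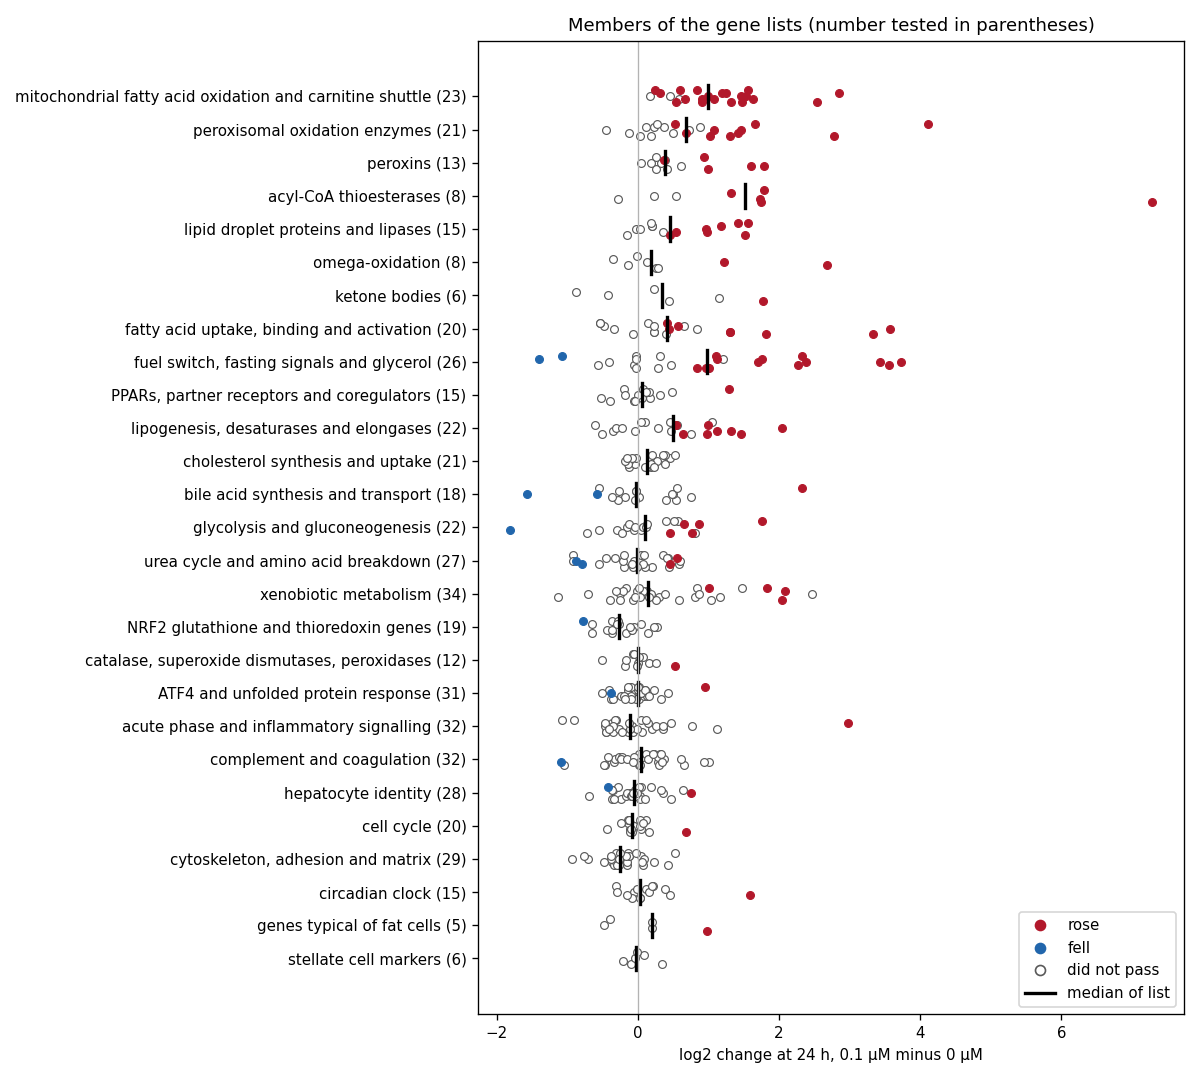
Log2 change at 24 h (0.1 µM minus 0 µM, horizontal) of each tested member of the gene lists with at least 5 tested members (vertical). Filled red points rose, filled blue points fell, open points did not pass and black bars are list medians: mitochondrial oxidation has 20 red points of 23 and a median of 0.99, and the cytoskeleton list has none and a median of -0.26.

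Of 15 PPARs, partner receptors and coregulators, only Rxrg, a retinoid X receptor, rose, 2.45-fold (8.17, 7.24 and 7.76 at 0.1 µM, against 6.65, 6.04 and 6.61 at 0 µM, adjusted p = 0.0191). It lost its call without Rs627, Rs631 or Rs632 (0.118, 0.380 and 0.101). With the block 2 of the 15 rose. Of all genes 2.96% rose, or 6.47% with the block. Ppara was near the floor, at 5.03, 4.82 and 5.11 at 0.1 µM, against 4.75, 4.55 and 5.19 at 0 µM (adjusted p = 0.935), so that a change in it could hardly be measured here. Pparg had a log2 change of -0.39 without passing.

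Beyond the lists, 164 of the rises and 108 of the falls belonged to no list. Serpine2, an inhibitor of serine proteases, was at 7.75, 7.82 and 7.77 at 0.1 µM, against 4.62, 3.91 and 4.35 at 0 µM, and rose at least 6.87-fold (adjusted p = 3.17e-07). Cacna2d3, an auxiliary subunit of calcium channels, was at 6.73, 6.24 and 6.50 at 0.1 µM, against 3.52, 3.52 and 3.54 at 0 µM, and rose at least 2.81-fold (adjusted p = 9.55e-14). Both genes lay under the floor in every 0 µM array and above it in every 0.1 µM array. Nim1k, a protein kinase, was at 8.98, 8.90 and 8.19 at 0.1 µM, against 6.04, 4.89 and 6.36 at 0 µM (at least 7.43-fold, adjusted p = 1.59e-06). Adig, a small protein of fat cells, rose at least 5.14-fold, Colq, which anchors acetylcholinesterase at synapses, at least 2.68-fold, and Aig1, a hydrolase of branched fatty acid esters, 5.55-fold. These 6 calls held with any rat left out.

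The largest falls were smaller than the largest rises, and most lost their calls when 1 rat was left out. With the rat as a block all 120 falls passed with the same sign. Leaving out a rat also leaves fewer arrays, and the part of that in the lost calls was not tested. Rgn, a calcium-binding protein with lactonase activity, was at 6.31, 6.31 and 6.34 at 0.1 µM, against 7.61, 7.70 and 8.45 at 0 µM, and fell 3.03-fold (-1.6 ± 0.33, adjusted p = 5.34e-04). Exoc1, a subunit of the exocyst, was at 7.93, 8.10 and 8.14 at 0.1 µM, against 9.45, 9.20 and 9.15 at 0 µM, and fell 2.31-fold (-1.21 ± 0.20, adjusted p = 5.56e-06), although another of its probe sets had a log2 change of -0.05. Gas6, a secreted ligand of the TAM receptor kinases, was at 8.86, 9.14 and 9.01 at 0.1 µM, against 10.02, 10.23 and 10.31 at 0 µM, and fell 2.27-fold (-1.18 ± 0.20, adjusted p = 7.61e-06), and its other probe set was lower by 0.67 without passing (adjusted p = 0.357). In these 3 genes the groups did not overlap and the calls held with any rat left out. Pkdcc, a secreted kinase, fell 2.99-fold (adjusted p = 0.00443, or 0.173, 0.257 and 0.0606 without Rs627, Rs631 and Rs632), Sult6b2, a sulfotransferase, 2.88-fold (0.0116, or 0.349 and 0.296 without Rs627 and Rs631), the magnesium transporter Slc41a3 at least 2.71-fold (0.00644, or 0.0677 without Rs632) and Abhd2, a lipid hydrolase, 2.37-fold (0.00332, or 0.0542 without Rs627). The other large falls were those of Cdr2, a coiled-coil protein (2.64-fold), the metal transporter Slc39a8 (2.23-fold), Crym, which binds thyroid hormone (2.40-fold), Rcan1, an inhibitor of calcineurin (2.36-fold), the carbonic anhydrase Car2 (at least 2.22-fold), the galectin Lgals2 (at least 2.22-fold), Klhl23 (at least 2.13-fold), the aldehyde dehydrogenase Aldh3b1 (at least 1.95-fold) and C7h12orf75 (at least 1.19-fold). None of these 9 calls held with every rat left out in turn. Without Rs627 the adjusted p was 0.542 for Cdr2, 0.397 for Lgals2, 0.10 for Klhl23, 0.174 for Crym, 0.445 for Rcan1, 0.134 for Car2 and 0.108 for Slc39a8, and without Rs628 0.0777 for Lgals2, 0.0941 for Aldh3b1, 0.0750 for Car2 and 0.0687 for Slc39a8. Without Rs631 it was 0.173 for Cdr2, 0.192 for Aldh3b1, 0.251 for C7h12orf75, 0.0660 for Klhl23 and for Crym, 0.184 for Rcan1, 0.114 for Car2 and 0.198 for Slc39a8. Without Rs632 it was 0.342 for Cdr2, 0.446 for Lgals2, 0.218 for Aldh3b1, 0.209 for C7h12orf75, 0.0810 for Crym, 0.0851 for Rcan1, 0.230 for Car2 and 0.0738 for Slc39a8. Without Rs627 there were 25 falls in all, without Rs631 46 and without Rs632 33, against 134 without Rs628, and the rises then numbered 136, 192, 186 and 255 in the same order of rats.

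The arrays carried the profile of hepatocytes in both groups. Of 29 hepatocyte genes measured, 28 exceeded the floor in at least 1 of the 6 arrays, with albumin, Alb, at a mean of 13.70 at 0.1 µM and 13.68 at 0 µM, and the list had 1 rise, the lipoprotein assembly protein Mttp (1.68-fold, adjusted p = 6.21e-05), and 1 fall, Foxa2 (1.35-fold, adjusted p = 0.0295, or 0.175, 0.0895, 0.225 and 0.0716 without Rs627, Rs628, Rs631 and Rs632), or 4 and 2 with the block. Among all genes 2.96% rose and 1.36% fell, or 6.47% and 6.46% with the block. Of 13 macrophage markers measured, Cd68 and Lyz2 exceeded the floor in any array, and Cd163, Csf1r, Ptprc, Clec4f and Adgre1 never did. Their summed linear level was 346 to 487 at 0.1 µM and 752 to 874 at 0 µM, carried by Lyz2, which fell 2.23-fold (8.5, 7.77 and 8.36 at 0.1 µM, against 9.39, 9.27 and 9.45 at 0 µM, adjusted p = 0.0496, or 0.296, 0.0543, 0.283 and 0.0989 without Rs627, Rs628, Rs631 and Rs632). In bulk RNA fewer cells of a type and less RNA per cell cannot be told apart, and the part of this shift in the other results was not tested. Stellate cell markers summed to 255 to 391 at 0.1 µM and 297 to 336 at 0 µM (4 of 10 above the floor, Lrat and Des never), bile duct markers to 971 to 1823 and 1095 to 1725 (4 of 7, Sox9 never), with 0 calls among their 6 and 4 tested genes, and 0 of 8 endothelial markers exceeded the floor. The 75th percentile of an array was 6.91 to 7.01 at 0.1 µM and 6.88 to 7.10 at 0 µM, and 0 of the 6 arrays were among the 5 of low signal (under 6.6). The β-actin probe sets differed by 1.78 to 1.94 between the 3′ and 5′ ends at 0.1 µM and by 1.75 to 2.22 at 0 µM on the log2 scale, and those of GAPDH by 0.241 to 0.314 and by 0.330 to 0.338, and the part of that gap was not tested.

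Set against the neighbouring concentrations at 24 h, the mean of Acot1 gained more between 0.01 and 0.1 µM than below 0.01 µM, whereas Cyp4a1 gained more below. The rats differed between concentrations, and Rs632, with the lowest Ehhadh and Fabp1 at 0.01 µM, had no 0.1 µM array. In Rs627 and Rs631, present at 0, 0.01 and 0.1 µM, Ehhadh gained about as much on either side of 0.01 µM. It was at 8.57, 10.43 and 12.39 in Rs627 and at 8.25, 10.46 and 12.47 in Rs631. Fabp1 gained more below 0.01 µM in both (10.26, 11.90 and 12.80 in Rs627, and 9.25, 11.03 and 12.51 in Rs631). At 0, 0.001, 0.01, 0.1, 1 and 10 µM (3, 4, 4, 3, 4 and 3 arrays) Ehhadh averaged 8.36, 8.81, 10.15, 12.47, 12.69 and 12.73, Acot1 4.33, 4.29, 6.6, 11.61, 11.97 and 11.98, Fabp1 9.39, 9.69, 11.05, 12.72, 12.93 and 12.96, and Cyp4a1 10.13, 10.59, 11.62, 12.82, 12.97 and 12.90. The SD at 0.01, 0.1 and 1 µM was 0.49, 0.08 and 0.06 for Ehhadh and 1.57, 0.21 and 0.19 for Acot1. Fabp3 was still under the floor at 0.01 µM (4.01 ± 0.07, SD) and reached 7.48 ± 0.85 at 0.1 µM and 9.49 ± 1.55 at 1 µM. Of the falls, Rgn averaged 7.92, 7.78, 7.42, 6.32, 5.85 and 6.04, and Gas6 10.19, 10.10, 9.83, 9.0, 8.46 and 7.99.

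**Figure D4:**
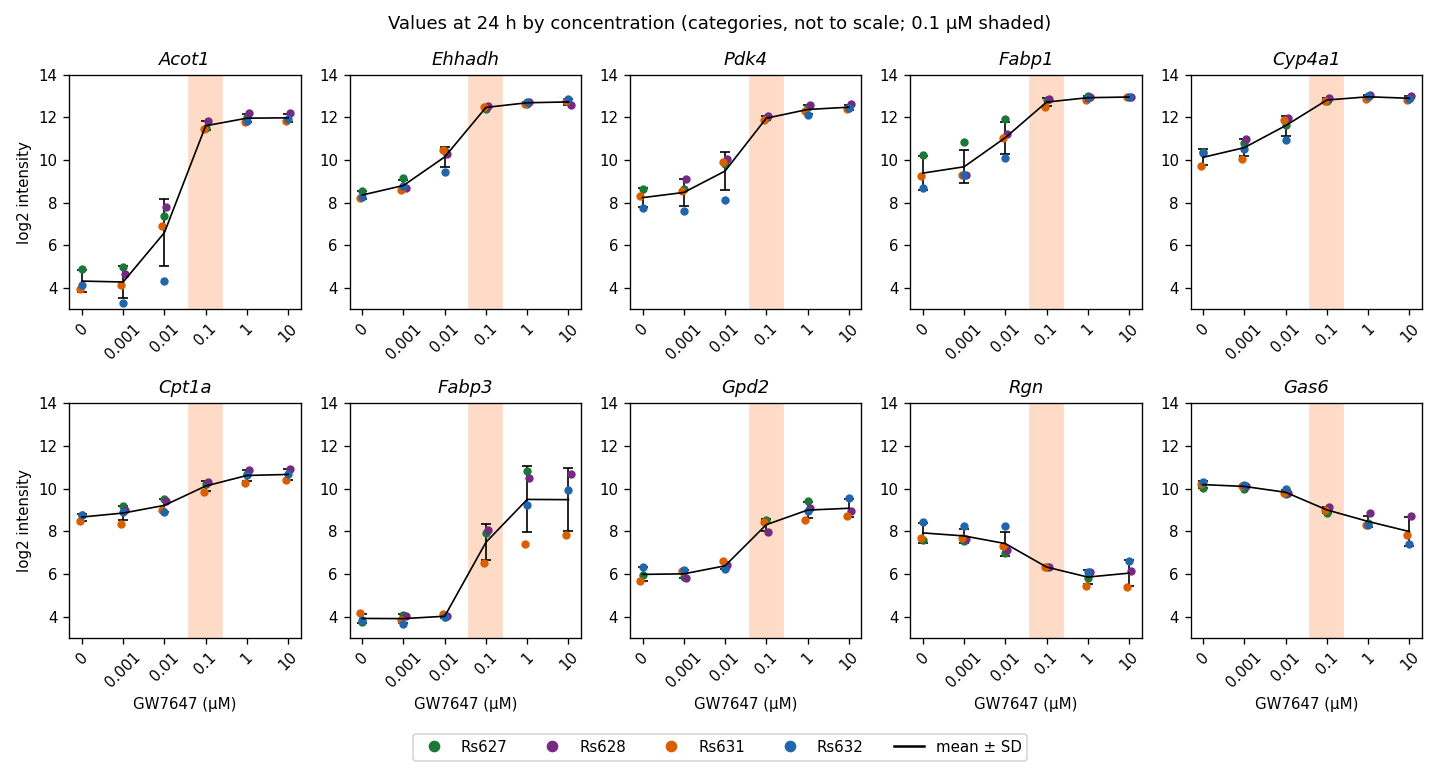
Log2 intensity at 24 h (vertical) of 10 genes by GW7647 concentration (horizontal, categories), with single arrays coloured by rat, means ± SD and 0.1 µM shaded. Ehhadh averages 10.15 at 0.01 µM, 12.47 at 0.1 µM and 12.69 at 1 µM, and Rgn and Gas6 run downward.

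Between 0.1 and 0.01 µM, 146 genes differed (1.65%), 128 higher (1.45%) and 18 lower (0.204%) at 0.1 µM, or 521 (5.89%) with the rat as a block, 359 higher (4.06%) and 162 lower (1.83%). The count was 76 without Rs627 and 87 without Rs632. This comparison and that with 0 µM share the 0.1 µM arrays. Mitochondrial oxidation had 15 of 23 genes higher at 0.1 than at 0.01 µM, peroxisomal enzymes 9 of 21, thioesterases 5 of 8 and the fuel switch list 11 of 26. Acot1 was at least 28.6-fold higher (adjusted p = 3.54e-07), with its 0.01 µM array of Rs632 under the floor, and its log2 difference as measured was 5.01 ± 0.70, or 4.25 without Rs632. Fabp3, under the floor in all 4 arrays at 0.01 µM, was at least 5.60-fold higher (3.99e-06). Pdk4 was higher by 2.48 ± 0.46 on the log2 scale (1.53e-04), Ehhadh by 2.32 ± 0.26 (1.09e-09), Cpt1b by 2.28 ± 0.38 (1.84e-05) and Gpd2 by 1.93 ± 0.26 (1.13e-07). Cpt1a differed by 0.91 ± 0.26 (adjusted p = 0.0492), a call lost without Rs627 (0.118), Rs628 (0.282), Rs631 (0.0998) or Rs632 (0.338).

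Between 1 and 0.1 µM, limma called 0 genes, with 1470 at an unadjusted p under 0.05, a smallest adjusted p of 0.113 and a median change of -0.17. With the rat as a block 74 genes passed (0.837%), 15 higher (0.170%) and 59 lower (0.667%) at 1 µM. Of the 4 arrays at 1 µM 2 were of low signal, and without the low-signal arrays 5 genes passed, against 1 without Rs628 and 3 without Rs631. Fabp3 was 2.01 ± 0.53 higher at 1 µM without passing (adjusted p = 0.203) and passed with the block (0.0181). Ehhadh differed by 0.22 ± 0.26, Acot1 by 0.36 ± 0.70, Pdk4 by 0.41 ± 0.46, Fabp1 by 0.21 ± 0.42 and Cpt1a by 0.49 ± 0.26, all higher at 1 µM and none past the threshold, which does not show equal levels.

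Over exposure time at 0.1 µM, the changes against 0 µM at the same time point differed in pace. At 2, 6, 12, 24 and 72 h (4, 3, 2, 3 and 3 arrays at 0.1 µM and 3, 4, 3, 3 and 4 at 0 µM) the log2 change of Pdk4 was 3.60, 2.50, 2.30, 3.72 and 2.87. That of Ehhadh was 1.34, 2.83, 3.80, 4.11 and 4.27, that of Fabp1 0.78, 2.00, 2.85, 3.33 and 3.78, and that of Acot8 0.09, 0.37, 1.01, 1.75 and 1.57. For Pdk4 the 0.1 µM means were 11.95, 11.81, 11.55, 11.96 and 11.20, and the 0 µM means 8.35, 9.30, 9.25, 8.24 and 8.33. Its change thus also followed its 0 µM level. The rats differed between time points, and Rs628 had a 0 µM array at 6 h but none at 2 or 24 h. At 0 µM and 6 h Rs628 was the highest array for Pdk4 (10.39) and Ehhadh (9.13), but not for Fabp1 or Acot8. One of the 0.1 µM arrays at 2 h was of low signal. Pdk4 stood high at the first time point, whereas the mean change of Acot8 was close to 0 there. That mean includes the low-signal array of Rs631, in which Acot8 was at 7.11. In Rs627, Rs628 and Rs632 Acot8 was at 7.82, 7.85 and 7.86 at 0.1 µM and 2 h. Its 0 µM arrays at 2 h lay between 7.48 and 7.62.

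**Figure D5:**
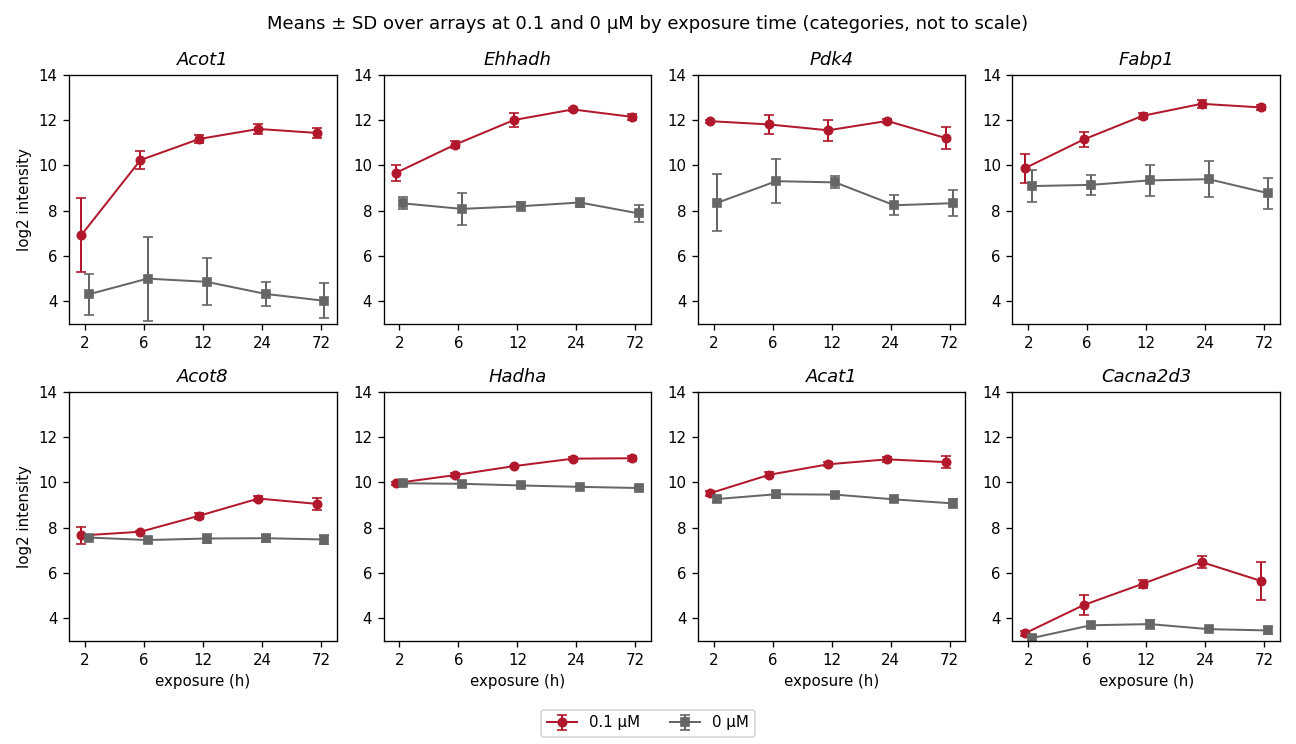
Mean ± SD of the log2 intensity (vertical) of 8 genes at 0.1 µM (red circles) and 0 µM (grey squares) by exposure time (horizontal, categories), with 2 to 4 arrays per point. Acot8 at 0.1 µM goes through 7.66, 7.83, 8.54, 9.29 and 9.05, while its 0 µM means stay between 7.46 and 7.57.

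The difference between the change at 24 h and that at 6 h passed for 14 genes (0.158%), 12 with a larger (0.136%) and 2 with a smaller value at 24 h (0.0226%), or for 93 with the rat as a block (1.05%), 78 with a larger (0.882%) and 15 with a smaller value (0.170%). Without Rs627 1 gene passed, without Rs628 6 and without Rs632 9. Acot8 differed by 1.38 ± 0.21 (adjusted p = 3.61e-05) and kept its call with any rat left out. Hadha differed by 0.86 ± 0.14 (1.32e-04, or 0.0922 without Rs627), Acat1 by 0.91 ± 0.17 (0.00189, or 0.109 without Rs627 and 0.134 without Rs631) and Pex19 by 1.14 ± 0.23 (0.00394, or 0.0922 without Rs627 and 0.172 without Rs631). Cacna2d3 also passed (0.00115, or 0.0906 without Rs627 and 0.0895 without Rs631), but it was above the floor in 1 of 3 arrays at 0.1 µM and in 0 of 4 at 0 µM at 6 h, so that no size is given for its difference. The 2 genes with smaller values at 24 h were Calm2, a calmodulin gene (-0.30 ± 0.07, adjusted p = 0.0328), and Pigx, of glycolipid anchor synthesis (-0.50 ± 0.12, adjusted p = 0.0411), and both lost their calls without Rs627 (1.00 and 1.00), Rs628 (0.329 and 0.183), Rs631 (0.261 and 0.156) or Rs632 (0.387 and 0.397). Ehhadh, Pdk4 and Fabp1 had differences of 1.28 ± 0.39, 1.22 ± 0.67 and 1.33 ± 0.62 that did not pass (adjusted p = 0.304, 1.00 and 1.00).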

How the data were processed

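RNA of cultured hepatocytes was hybridised to Affymetrix arrays, 1 per culture, 100 in all, from 4 rats and 30 groups of time and concentration. The values are log2 intensities per probe set, as the authors deposited them. Per the submitters' processing notes GCRMA and Partek were among the tools, their roles unstated, and versions and other steps are not given in the sources used here. Such summaries shrink differences near background, so a log2 value of 5 was taken as the floor, and a fold against a group with arrays at or under it is a bound computed with those values set to 5.

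Of 31139 probe sets, 19069 (61.2%) have 1 gene symbol, 572 several and 11498 none. A gene was read by its probe set of highest mean (13439 genes), and the 8843 genes above 5 in at least 3 arrays were tested. Group means were fitted over all 100 arrays by limma (version 3.58.1, under R 4.3.3, with statmod 1.5.0 for the random block), with Benjamini-Hochberg adjustment over all genes tested, two-sided, at 0.05. The procedure was also run on simulated data with independent noise and no rat effect. That run cannot show how arrays from the same rat affect the calls. Intensities carry no read depth.

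Same-numbered samples came from the same rat. Deviations from group means correlated at a median of 0.62 within a rat and of -0.229 between rats, and 14 of 14 arrays at 24 h were closest to their own rat, so that the fit with the rat as a block is given beside results whose call or count it moves. The named genes were the largest 20 rises and 20 falls of those called with the same sign in Rs627 and Rs631, up to 8 members of each of 30 gene lists by p, list members that did not pass, up to 10 genes each way for the other comparisons and a fixed set of known targets. The members and lists were chosen with earlier results of these data known. Promoters were read from RefSeq on GRCr8, and figures were drawn with matplotlib 3.10.9. Left-out rats and arrays, filters, scalings, variance models, fits on fewer arrays and single probe sets were tried as alternatives.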

Additional observations from a re-analysis of the deposited data

Results flagged for a closer look

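Among the genes of the concentration and time plots, 4 of the 54 groups of 4 arrays had 1 array that stood far from the others, and chance alone marks about 1 in 20 such groups. Acot8 at 0.1 µM and 2 h was lowest in Rs631 at 7.11, with the next array at 7.82, and that array was of low signal. Fabp1 at 0.001 µM and 24 h was highest in Rs627 at 10.84, with the next at 9.32. Pdk4 at 0.01 µM and 24 h was lowest in Rs632 at 8.15, with the next at 9.80, and Gas6 at 0.01 µM and 24 h was highest in Rs632 at 9.96, with the next at 9.79.

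The change against 0 µM differed between 24 h and 6 h in the limma interaction contrast for 14 genes, of which 12 are given with the log2 change at 24 h minus that at 6 h. Adig differed by 2.59, Cacna2d3 by 2.07, Abhd1 by 1.54, Acot8 by 1.38, Apmap by 1.22, Pex19 by 1.14, Acadm by 1.09, Pxmp2 by 1.03, Acat1 by 0.91, Hadha by 0.86, Calm2 by -0.30 and Pigx by -0.50. At 6 h Adig was above the floor in no array and Cacna2d3 in 1 of 3 at 0.1 µM, so their values are differences as measured, partly below the floor. Without Rs627 1 gene passed. Adig then differed by 3.19 (adjusted p = 0.150, or 0.388 without Rs628 and 0.556 without Rs631). Abhd1 no longer passed without Rs627 (0.109), Rs628 (0.183) or Rs631 (0.0760), Apmap without Rs627 or Rs628 (0.929 and 0.524), Acadm without Rs627, Rs628 or Rs632 (0.516, 0.547 and 0.145) and Pxmp2 without Rs627, Rs628, Rs631 or Rs632 (0.116, 0.345, 0.0814 and 0.210).

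Of 4010 probe sets with no gene name that passed the filter, 82 were called between 0.1 and 0 µM at 24 h, 56 higher and 26 lower, which was 2.04% of them, against 3.23% of all 15873 probe sets tested as features of their own. The largest rise was 3.41 on the log2 scale (mean 8.56 at 0.1 µM and 5.15 at 0 µM) and the largest fall -1.91 (mean 5.52 at 0.1 µM and 7.42 at 0 µM).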

How the results depend on the processing

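With 0.1 against 0 µM at 24 h, the count of 382 was 1143 with the rat as a replicate block, 1033 with the rat as a random block, 152 from the compared groups alone, 250 from Rs627 and Rs631 alone, 244 at 1.5-fold or more, and, with choices added after the data were seen, 685 for Rs627 and Rs631 with the block and 1161 for 24 h arrays with the block. Leaving out 1 rat gave 161 to 389. Rises and falls numbered 262 and 120, 323 and 208 after quantile normalization, 266 and 60 after median centring, 132 and 20 from the compared groups alone and 214 and 57 from the compared times alone. Against 0.01 µM, the count of 146 was 521 with the block, 473 with the random block, 49 from the compared groups alone, 499 with 24 h arrays and the block, and 76 to 115 with 1 rat left out. For 1 against 0.1 µM, limma's count of 0 (1470 at an unadjusted p under 0.05) was 74 with the block, 76 with the random block, 5 without low-signal arrays, 4 without repeated plate positions, 3 after quantile normalization, 1 over every probe set, 11 with 24 h arrays and the block, and 0 to 3 with 1 rat left out. For the change at 24 h minus that at 6 h, the count of 14 was 93 with the block, 79 with the random block and 1 to 11 with 1 rat left out. The causes were not tested. Of 154 genes named for 0.1 against 0 µM, 133 were called, 62 of these kept their call in all alternatives run, and 0 changed sign. Among uncalled genes, the log2 change of Ppara ranged from -0.048 to 0.333 and that of Fasn from -0.13 to 0.24 with 1 rat left out. Low signal limits genes near the floor, such as Ppara, and 3 arrays per group limit small changes.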
